A study of Homo sapiens with 6 samples.

Results

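The 8 genes described here hold epithelial cells together or keep them epithelial. They are CDH1, EPCAM, CLDN3, CLDN4, CLDN7, OCLN, TJP1 and ESRP1. Their chromatin was read from 4 deposited interval lists of a chromatin immunoprecipitation sequencing (ChIP-seq) study of Calu-3, a human airway cell line established from an adenocarcinoma of the lung. The members were the intervals whose centre lay in 7 windows of the genome build hg19, each spanning a gene with about 20 to 50 kb on each side, and CLDN3 and CLDN4 shared a window. The windows covered 1.05 Mb in all and held 71 of the 73341 intervals of the 4 lists. These were 2 peaks of EHF replicate 2, 37 regions of H3K27ac and 32 of H3K4me1, and no peak of EHF replicate 1.

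All 6 libraries of the study came from unmodified Calu-3 cells with no treatment given in the labels, so they describe 1 cell line. EHF, an ETS-family transcription factor found in epithelia, was precipitated with the antibody clone 5A.5 in 2 replicates, and the histone marks H3K4me1 and H3K27ac were precipitated in 1 library each. H3K27ac marks active promoters and enhancers, and H3K4me1 marks enhancers. Each of the 2 input libraries served as control in calling peaks, one for EHF and the other for the marks, and has no list of its own here. The libraries held 8418631 to 21426939 tags. The whole lists held 1537 peaks (EHF replicate 1), 5216 peaks (EHF replicate 2), 31950 regions (H3K4me1) and 34638 regions (H3K27ac). The score of an interval is the authors' normalized tag count, scaled to 10000000 tags per library, and carries no error of its own. Since each mark had 1 library, no value of a mark has a replicate check. Values are therefore described beside those of the whole list, and no test was made. An interval that is missing from a list did not pass the caller's rules, which does not show that the protein or the mark was absent.

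Epithelial cells adhere through adherens junctions and seal the space between them with tight junctions. E-cadherin (CDH1) forms the adherens junction by binding E-cadherin on the neighbouring cell, and EPCAM is an adhesion protein of the lateral membrane. Claudins (CLDN3, CLDN4 and CLDN7) build the tight junction strands and set which ions pass. Occludin (OCLN) lies in the same strands, and ZO-1 (TJP1) ties strand proteins to the actin skeleton. ESRP1 is a splicing factor that keeps the epithelial isoforms of many transcripts.

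ETS factors recognise DNA around a GGAA core, so promoter sequence is shown for the claudin genes and OCLN, whose windows carried H3K27ac without a called EHF peak. The TJP1 and ESRP1 windows did so too, but no promoter of these genes is shown, nor is the downstream OCLN promoter. The sequences come from RefSeq on GRCh38.p14, 250 bases before to 50 bases after a gene's start, 5′ to 3′ along the gene. That build differs from hg19, so the promoters could not be placed inside or outside any interval of the lists. Capitals mark the GGAA core on either strand (GGAA or TTCC).
CLDN3, chr7:73770221-73770520, minus strand: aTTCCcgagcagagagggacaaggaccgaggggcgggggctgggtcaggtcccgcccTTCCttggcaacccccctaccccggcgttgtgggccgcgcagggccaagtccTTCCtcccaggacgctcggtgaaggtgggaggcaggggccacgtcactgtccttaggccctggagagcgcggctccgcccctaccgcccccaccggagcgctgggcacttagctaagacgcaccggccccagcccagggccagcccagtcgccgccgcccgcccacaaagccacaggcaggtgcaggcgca
CLDN4, chr7:73830746-73831045, plus strand: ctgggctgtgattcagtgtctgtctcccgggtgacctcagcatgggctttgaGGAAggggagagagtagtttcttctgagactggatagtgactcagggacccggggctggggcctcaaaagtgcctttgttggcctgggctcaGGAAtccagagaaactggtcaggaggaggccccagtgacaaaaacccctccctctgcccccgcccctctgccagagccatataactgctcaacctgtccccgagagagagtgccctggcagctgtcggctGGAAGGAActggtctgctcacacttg
CLDN7 upstream start, chr17:7263164-7263463, minus strand: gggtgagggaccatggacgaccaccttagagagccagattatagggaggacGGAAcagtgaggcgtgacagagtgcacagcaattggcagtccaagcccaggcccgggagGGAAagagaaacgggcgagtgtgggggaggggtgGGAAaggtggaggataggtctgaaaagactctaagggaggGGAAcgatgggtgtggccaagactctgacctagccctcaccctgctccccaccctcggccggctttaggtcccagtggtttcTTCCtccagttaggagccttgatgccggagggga
CLDN7 downstream start, chr17:7262429-7262728, minus strand: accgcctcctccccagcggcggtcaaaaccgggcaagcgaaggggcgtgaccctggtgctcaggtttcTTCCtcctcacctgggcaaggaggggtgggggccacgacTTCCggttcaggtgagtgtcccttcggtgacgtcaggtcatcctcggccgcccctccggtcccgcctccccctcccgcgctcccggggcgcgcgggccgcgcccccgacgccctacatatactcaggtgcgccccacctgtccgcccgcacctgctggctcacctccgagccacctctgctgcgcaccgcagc
OCLN upstream start, chr5:69492297-69492596, plus strand: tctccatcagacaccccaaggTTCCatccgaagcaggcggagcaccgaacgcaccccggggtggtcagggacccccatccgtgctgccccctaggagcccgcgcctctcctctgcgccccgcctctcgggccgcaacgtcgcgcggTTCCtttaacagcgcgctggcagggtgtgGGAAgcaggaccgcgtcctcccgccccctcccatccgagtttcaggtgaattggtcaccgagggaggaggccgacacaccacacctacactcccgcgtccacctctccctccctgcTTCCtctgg

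The promoter table matched 5 of the 8 genes with 10 promoters (1 each for CLDN3 and CLDN4, 2 each for CLDN7 and OCLN, 4 for TJP1). CDH1 and EPCAM had no entry. Promoters on chromosome 8, where ESRP1 lies, were left out of the search for the 8 genes, so ESRP1 was not analysed here. The share over all promoters includes that chromosome. All 10 promoters held the GGAA core on either strand, as did 95.5% of the 35116 promoters in the table. The CLDN4 promoter held 4 cores, 2 before the gene's start and 2 after it, and the CLDN3 promoter held 3, all before the start. The longer ETS-type motif AGGAAG, which contains the core, was found in 8 of the 10 on either strand, and in 33.6% of all promoters. The 2 without it were both TJP1 promoters. The E-box CAGGTG, a motif bound by ZEB and SNAIL repressors, was in 5 of the 10 and in 20.6% of all promoters. The downstream CLDN7 promoter alone held 5 of these E-boxes and the CLDN4 promoter none. Promoters of 1 gene are not independent (those of OCLN overlap), and a match to letters does not show binding.

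Across the windows both marks were denser than over their whole lists, while EHF replicate 2 peaks were close to the density of theirs. H3K27ac regions covered 8.76% of the window bases, against 2.10% over the whole list. H3K4me1 regions covered 2.59%, against 0.764%. The windows held 35.2 H3K27ac regions per Mb (11.2 over the whole list), 30.5 H3K4me1 regions per Mb (10.3) and 1.90 EHF replicate 2 peaks per Mb (1.69). All 7 windows held H3K27ac and 6 of 7 held H3K4me1, whereas 54.0% and 45.6% of all 150 kb bins of the genome did so. EHF replicate 2 had a peak in 2 of 7 windows, beside 17.5% of all bins and 29.9% of the bins that held H3K27ac. EHF replicate 1 had a peak in none of the 7, beside 6.50% of the bins. The windows were 50 to 220 kb long and centred on genes, which the bins were not, so these shares are a background and not a match.

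**Figure D1:**
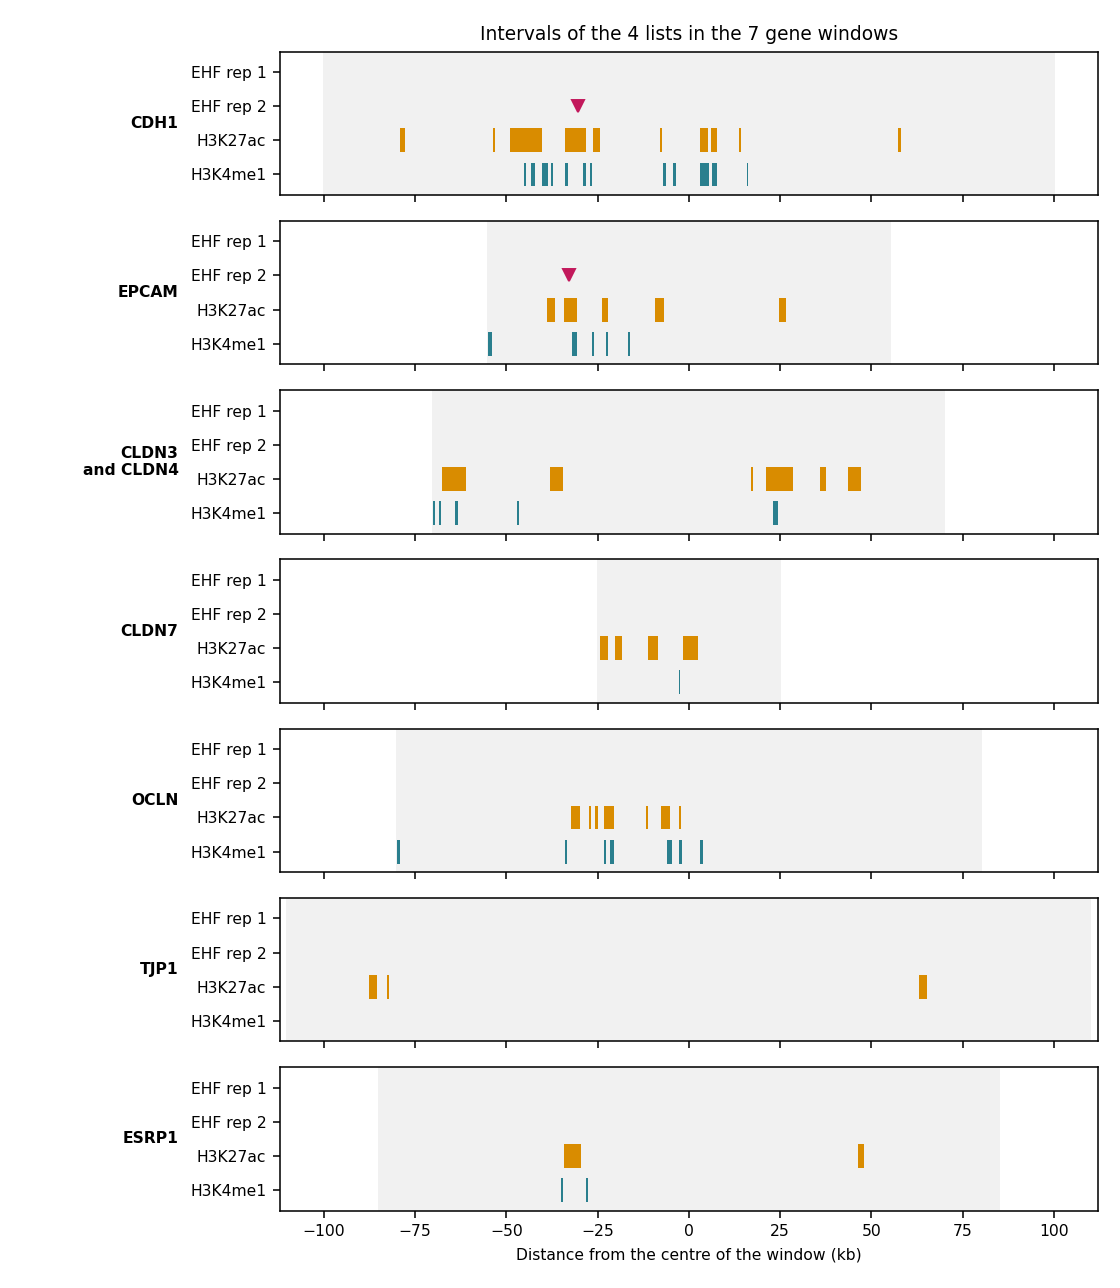
Positions of all 71 intervals in the 7 windows (grey), in kb from the window's centre, 1 row per list. Bars are drawn to scale, and triangles mark the 2 EHF peaks, which have no counterpart in EHF replicate 1. H3K27ac regions are densest in the CLDN7 window (80.0 per Mb) and sparsest in the ESRP1 (11.8 per Mb) and TJP1 (13.6 per Mb) windows. H3K4me1 regions are densest in the CDH1 window (60.0 per Mb), and TJP1 has none.

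CDH1 had the most intervals. Its window, 68720001 to 68920000 on chromosome 16, held 10 H3K27ac regions, 12 H3K4me1 regions and 1 EHF replicate 2 peak. H3K27ac covered 12.1% of the window. H3K4me1 covered 6.07%, its highest share among the 7 windows. The widest H3K27ac region, at 68771122 to 68779691, was 8570 bp wide with a score of 417. Only 2.70% of the H3K27ac list scored as high and 1.31% was as wide. The region at 68786108 to 68791963 was 5856 bp wide with a score of 311 (top 4.46% of the list by score). These 2 regions held most of the window's H3K27ac score of 1030. The region with the next highest score, at 68793667 to 68795727, had 82. H3K4me1 was strongest further along, at 68823055 to 68825487, where a region of 2433 bp had a score of 53 (top 2.61% of the H3K4me1 list) and lay over an H3K27ac region with a score of 55. The H3K4me1 region with the next highest score, at 68779703 to 68781473, scored 41 and began 11 bp past the end of the widest H3K27ac region.

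The EHF peak of the CDH1 window lay at 68789529 to 68789653, inside the H3K27ac region with the score of 311. It was 3421 bp from that region's lower end and 2310 bp from its upper end. H3K4me1 regions that overlapped the same H3K27ac region lay on both sides of it. The lower one ended 2491 bp before the peak and had a score of 34, and the upper one began 1309 bp after it and had a score of 17. The peak was 69.6 kb from the lower edge of the window and 130 kb from the upper. With margins of at most about 50 kb in the rule, this places it inside the span of CDH1.

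EPCAM had the other EHF peak. Its window, 47550001 to 47660000 on chromosome 2, held 5 H3K27ac and 5 H3K4me1 regions, which covered 10.7% and 3.59% of it. The EHF replicate 2 peak at 47572132 to 47572256 lay in the widest and highest-scoring H3K27ac region of the window, at 47570906 to 47574392, which was 3487 bp wide with a score of 210 (top 8.35% of the list). An H3K4me1 region with a score of 41, the highest of the window, began 643 bp after the peak inside the same H3K27ac region. On the lower side no H3K4me1 region was called for 21174 bp. The peak was 22.2 kb from the window's lower edge, so the rule does not settle whether it lies in EPCAM or beside it. The H3K27ac region nearest the centre of the window, at 47595837 to 47598326, scored 122 with 49.0 per kb and its nearest H3K4me1 region was 6946 bp away. The region at 47566266 to 47568419 scored 81. The H3K4me1 regions next in score, at 47578468 to 47579132 and at 47582310 to 47582810, had 15 each.

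The 2 EHF peaks were low in score, and both lay in H3K27ac near an H3K4me1 region. Their scores were 10 (CDH1) and 11 (EPCAM), and 86.0% and 68.6% of the replicate 2 list scored at least as high. Both overlapped H3K27ac, as did 63.8% of all EHF replicate 2 peaks. Neither overlapped H3K4me1 (7.98% of all), and both had an H3K4me1 region within 2000 bp (42.3% of all). Neither had a replicate 1 peak. Of all 1672 replicate 2 peaks with these scores, 7.48% overlapped a replicate 1 peak, so a lack of recurrence is the usual case for peaks of this size. No EHF site in the windows was therefore seen in both replicates. Of the 37 H3K27ac regions 2 held an EHF replicate 2 peak, or 5.41% (exact 95% interval 0.662% to 18.2%), beside 8.99% of the whole list. None held a replicate 1 peak, beside 2.65% of the whole list. Intervals on shares cover counting error only, and neighbouring regions are not independent.

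**Figure D2:**
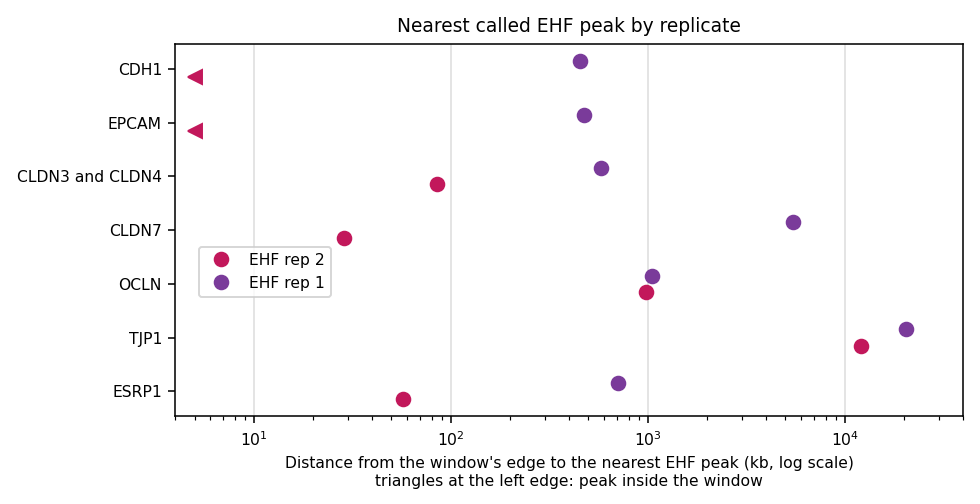
Distance in kb (log scale) from the edge of each window to the nearest called EHF peak, with replicate 2 in pink and replicate 1 in purple. Triangles at the left edge mark the 2 peaks inside a window (CDH1 and EPCAM, replicate 2). Replicate 1 distances run from 452 kb (CDH1) to 20556 kb (TJP1), and the replicate 2 distance of TJP1 is 12144 kb.

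Outside the windows the nearest EHF peaks differed widely in distance. Replicate 2 had a peak 28.7 kb beyond the CLDN7 window, with a score of 10, and 57.4 kb beyond the ESRP1 window, with a score of 17. Its nearest peak to the CLDN3 and CLDN4 window was 85.0 kb away, with a score of 17, and lay outside H3K27ac, unlike those beside CLDN7 and ESRP1. The distance was 984 kb for OCLN. In replicate 1 the nearest peaks were 452 kb (CDH1), 476 kb (EPCAM), 577 kb (CLDN3 and CLDN4), 707 kb (ESRP1) and 1047 kb (OCLN) away, and 5445 kb for CLDN7. TJP1 was farthest from EHF in both lists, at 12144 kb in replicate 2 and 20556 kb in replicate 1.

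CLDN3 and CLDN4 had the strongest H3K27ac region of the 8 genes. Their window, 73150001 to 73290000 on chromosome 7, held 6 H3K27ac regions that covered 16.6% of it and had a summed score of 1223. The region at 73241015 to 73248450 was 7436 bp wide with a score of 523 and 70.3 per kb, and only 1.80% of the list scored as high. It held the highest-scoring H3K4me1 region of the window, at 73243113 to 73244552, with a score of 33. The region at 73152349 to 73158939, near the lower edge, was 6591 bp wide with a score of 373 (top 3.32%) and held an H3K4me1 region with a score of 15. The region at 73263559 to 73267275 scored 151, and the one at 73182044 to 73185594 scored 133 with its nearest H3K4me1 region 8608 bp away. Which region belongs to which claudin was not analysed here. By RefSeq gene order ABHD11 precedes CLDN3, and METTL27 and TMEM270 follow CLDN4, so a region may also lie at a neighbour.

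CLDN7 had the highest share of bases under H3K27ac and little H3K4me1. In its window of 50 kb, 7140001 to 7190000 on chromosome 17, 4 H3K27ac regions covered 22.4% and 1 H3K4me1 region covered 1.00%. The H3K27ac region at 7163279 to 7167532, in the middle of the window, was 4254 bp wide with a score of 177 (top 10.7%). The other 3 scored 76 to 95 and lay on its lower side. The H3K4me1 region, at 7162187 to 7162687, had a score of 9 and ended 591 bp before the middle region. This is the shortest of the 7 windows and its genes are close together (by RefSeq order GABARAP, CTDNEP1 and ELP5 on the lower side and SLC2A4 on the upper), so the share may count H3K27ac of several genes.

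OCLN lay lower for H3K27ac and had as many regions of each mark. Its window, 68740001 to 68900000 on chromosome 5, held 7 H3K27ac regions covering 6.35% and 7 H3K4me1 regions covering 3.72%. The H3K27ac regions with the highest scores had 117 (68787812 to 68790126), 105 (68796733 to 68799621, the widest with 2889 bp) and 87 (68812411 to 68814802). The first of these had 50.5 per kb and its nearest H3K4me1 region 1065 bp away, and the other two overlapped H3K4me1. The strongest H3K4me1 regions, at 68798455 to 68799545 and at 68814049 to 68815481, had scores of 35 and 32 (top 7.85% and 9.92% of the list) and overlapped these same regions. The centres of all 7 H3K27ac regions lay 48.97 to 77.5 kb from the lower edge, and none lay farther along the 160 kb of the window. MARVELD2, which encodes tricellulin, the tight junction protein of tricellular contacts, precedes OCLN in RefSeq gene order.

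TJP1 had the smallest share of bases under either mark and the lowest summed scores, although ESRP1 had fewer H3K27ac regions (2, against 3). Its window of 220 kb, 29940001 to 30160000 on chromosome 15, held 3 H3K27ac regions that covered 2.25% of it, close to the 2.10% of the whole list. Their scores were 53 (29962376 to 29964509), 8 (29967242 to 29967742) and 45 (30113050 to 30115371, the widest with 2322 bp). Each of the 3 was below the list's median of 27.9 per kb, with 24.8, 16.0 and 19.4. No H3K4me1 region was called. The RefSeq span of TJP1 on GRCh38.p14 is longer than the window, so the window cannot hold all of it, and a start outside the window was not analysed here.

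The marks were sparse around the TJP1 window too. From the lowest H3K27ac region on chromosome 15, at 22833601, up to 40390521 no H3K4me1 region and no EHF peak of either replicate was called. This stretch of 17.6 Mb, delimited after the lists were seen, held 92 H3K27ac regions, or 5.24 per Mb, against 14.1 per Mb on the rest of the chromosome. Their median score per kb was 19.96 in the stretch and 30.1 on the rest. The rest of the chromosome held 799 H3K4me1 regions, 71 EHF replicate 1 peaks and 135 replicate 2 peaks. The number of copies of this stretch in Calu-3 and its depth in the input were not tested.

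ESRP1 had 1 strong region. Its window, 95600001 to 95770000 on chromosome 8, held 2 H3K27ac regions that covered 3.77%. The region at 95650708 to 95655479 was 4772 bp wide with a score of 260 and 54.5 per kb (top 6.09% of the list by score). It was flanked by the window's 2 H3K4me1 regions, which had scores of 11 and 10 and lay 286 bp below it and 1299 bp above it, without overlap. The other H3K27ac region, at 95731274 to 95732906, scored 58 and was 73994 bp from the nearest H3K4me1 region.

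**Figure D3:**
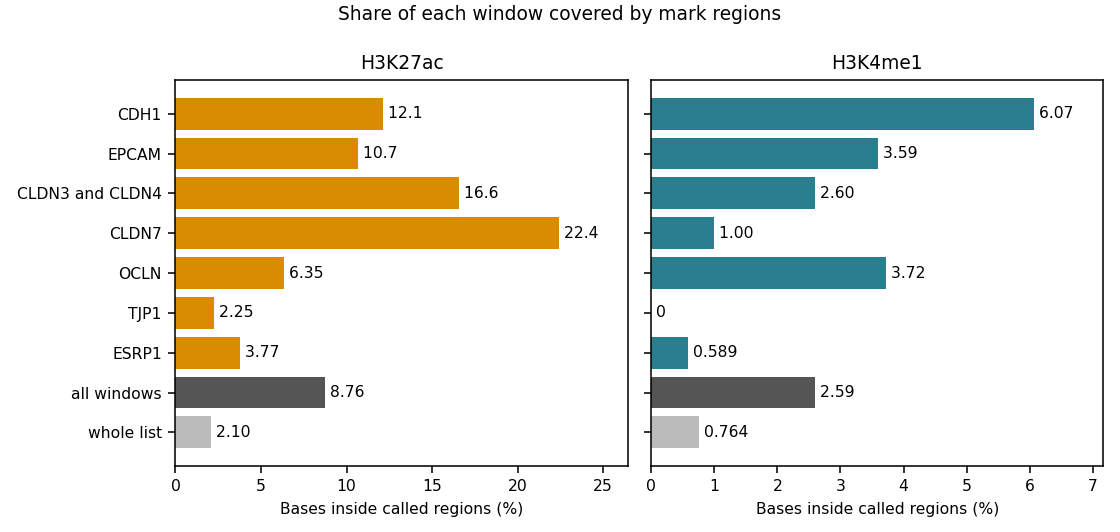
Percent of the bases of each window inside called H3K27ac regions (left) and H3K4me1 regions (right), with all 7 windows together in dark grey and the whole list over the genome in light grey. The order of the windows differs between the marks: CLDN7 is highest for H3K27ac (22.4%) and CDH1 for H3K4me1 (6.07%).

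The order of the windows differed between the marks. By share of bases under H3K27ac it was CLDN7, CLDN3 and CLDN4, CDH1, EPCAM, OCLN, ESRP1 and TJP1. By H3K4me1 it was CDH1, OCLN, EPCAM, CLDN3 and CLDN4, CLDN7, ESRP1 and TJP1. By summed H3K27ac score per 100 kb the CLDN3 and CLDN4 window (874) and the CLDN7 window (862) led, followed by CDH1 (515), EPCAM (497), OCLN (226), ESRP1 (187) and TJP1 (48.2), beside 93.7 over the whole list. With 1 library per mark there is no spread by which to tell neighbours in these orders apart, and the window lengths differ.

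As a group, the H3K27ac regions of the windows were wider than the list's middle, while their higher median score per kb was less clear. Their median width was 2134 bp, against 1370 bp for the list, and 26 of 37 were wider than that. Their median score per kb was 35.8, against 27.9, and 24 of 37 reached the list's median. By score 6 of 37 stood in the top 10% of the list, namely 2 of CDH1, 2 of CLDN3 and CLDN4, and 1 each of EPCAM and ESRP1. The H3K4me1 regions had a median of 22.7 per kb, against 23.2 for their list, and a median width of 717.5 bp, against 501 bp. By score 9 of 32 were in the top 10% of that list. Most of these were at CDH1, the others at OCLN, EPCAM and CLDN3 and CLDN4, and none at CLDN7 or ESRP1. In both lists wide regions had high scores, since a score is summed over the region.

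**Figure D4:**
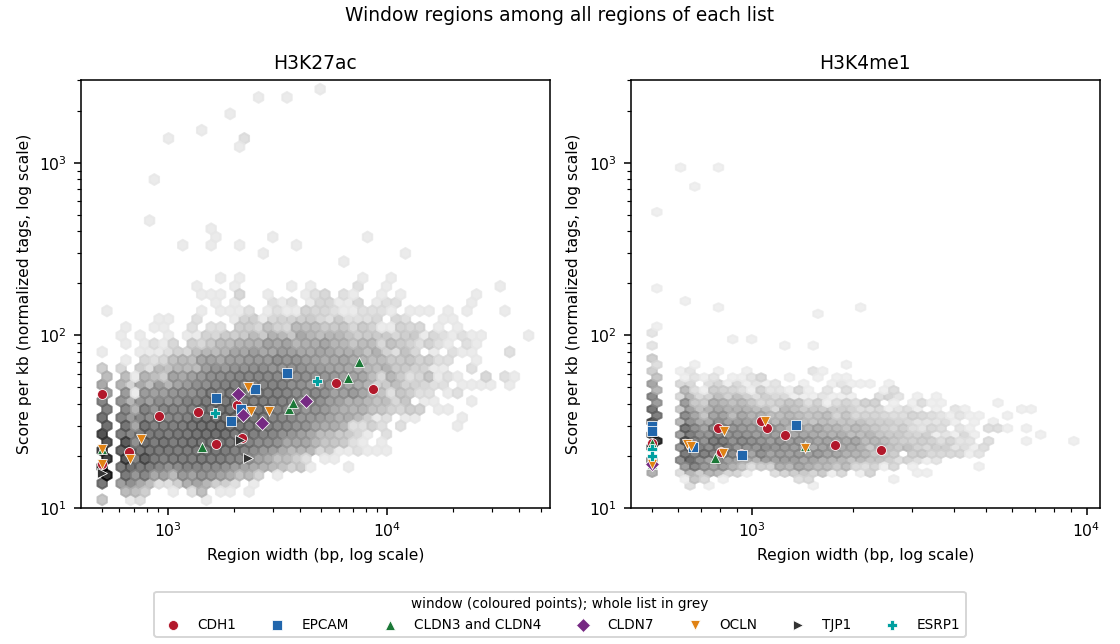
Width in bp (log scale) against score per kb (log scale) of the H3K27ac regions (left) and H3K4me1 regions (right). Coloured points are regions in the windows and grey hexagons the whole list, darker where more regions lie. The widest H3K27ac points are those of CDH1 (8570 bp) and of CLDN3 and CLDN4 (7436 bp), and the 3 TJP1 points lie low.

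A minority of the H3K27ac regions carried H3K4me1 as well. Of the 37 H3K27ac regions 11 overlapped H3K4me1, or 29.7% (exact 95% interval 15.9% to 47.0%), beside 34.5% of the whole list. Judged by the centre of the H3K27ac region the share was 8.11%, beside 14.7% of the whole list. The overlapping regions were 4 of 10 at CDH1, 2 of 5 at EPCAM, 2 of 6 at CLDN3 and CLDN4 and 3 of 7 at OCLN, and none of those at CLDN7, TJP1 and ESRP1. Of the 32 H3K4me1 regions 16 overlapped H3K27ac (exact 95% interval of the share 31.9% to 68.1%), beside 45.2% of the whole list. A further 9 lay within 2000 bp of an H3K27ac region without touching it, and 7 lay farther off.

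Both marks were sparser in the outermost 20 kb of the windows than farther in, although H3K27ac was not densest in the inner parts. The CLDN3 and CLDN4 window, which holds 2 genes, is left out of this count. The inner parts lay more than 50 kb from both edges. The rule's margins are only about 20 to 50 kb, so this places the inner parts roughly within a gene. They held 14 H3K27ac regions in 360 kb (3.89 per 100 kb). In the outermost 20 kb on each side there were 4 in 240 kb (1.67 per 100 kb), and in between 13 in 310 kb (4.19 per 100 kb). H3K4me1 had 19, 2 and 6 regions in the same parts, or 5.28, 0.833 and 1.94 per 100 kb. CDH1 gave 7 of the 14 inner H3K27ac regions and 12 of the 19 inner H3K4me1 regions, and OCLN gave 6 and 5. TJP1, with the longest inner part, gave none of either mark.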

How the data were processed

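Per the labels' protocols, Calu-3 nuclei were lysed and sonicated, protein-DNA complexes were taken with antibody, and fragments of 200 to 300 bp were amplified and sequenced. The tools named in the submitters' processing notes are HOMER 1.2 and Bowtie 1.0.0, with the build hg19. Per the file headers, HOMER findPeaks called each library separately against its input at a false discovery rate of 0.01 and a fold of at least 4.0 over input, with fixed peaks for EHF (150 and 125 bp) and stitched regions for the marks. The deposited score is the authors' tag count per interval after scaling, given as a whole number. Fold and stitching rules drop weak or diffuse signal and set region width.

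Intervals were assigned to windows by their centre, overlap meant at least 1 bp, and exact (Clopper-Pearson) 95% intervals came from scipy 1.17.1 under Python 3.11.15. The overlap search was tested on simulated intervals. Named intervals were, per window, every EHF peak, the 3 H3K27ac regions with the highest score, the widest H3K27ac region and the 2 H3K4me1 regions with the highest score. The background bins of 150 kb tiled each chromosome up to its furthest interval end. Members and lists were chosen with earlier results of these data known. RefSeq on GRCh38.p14 served for names, gene order and promoters, and no coordinates were converted. Gene starts, peak sequences and a further list of junction genes need hg19 annotation and were not analysed here.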

Additional observations from a re-analysis of the deposited data

How the results depend on the processing

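Of 54 alternative values 45 were labelled the same and 9 moved. The same meant within 1.5 times the reported count, or within the exact 95% interval of the reported share or median. Reversal was not assessed. Some values could hardly move. With no replicate 1 peak in the windows, a shared site was impossible. A minimum score of 10 could not drop peaks that score 10 and 11. The intervals of the EHF shares, from 2 peaks, were wide. Other values could hardly stay the same. For the shares of window bases each base counted as a separate trial, though neighbouring bases are not independent. Those intervals were therefore too narrow (8.70% to 8.81% for H3K27ac and 2.56% to 2.62% for H3K4me1), and every alternative of these shares was labelled moved. The tally is therefore no measure of robustness. The counts of 0, 2 and 0 EHF replicate 1 peaks, replicate 2 peaks and shared sites were the same under each alternative run. Judged by the centre of the H3K27ac region, the share that met H3K4me1 was 8.11% in place of 29.7%. The share of window bases in H3K27ac was 9.88% with windows trimmed by 20 kb on each side, 8.82% after joining regions at most 1000 bp apart and 7.38% with regions at or above the list's median score per kb. For H3K4me1 these were 3.11%, 2.75% and 1.01%. That last threshold also gave a median of 41.1 per kb and a width of 2441 bp for H3K27ac, since it removes low regions. Without EHF replicate 1 the shares of EHF peaks in each mark were as reported, and without replicate 2 no peak was left. The motif settings and the density settings were chosen after seeing the data. No paired analysis was possible because only the EHF libraries carry replicate numbers and no fit between groups was made.

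EHF replicate 1 had more tags than replicate 2 (10176290 and 8418631) and fewer peaks (1537 and 5216). Whether depth limits the calls at these genes was not tested.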
